A study of Mus musculus with 9 samples.

Results

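Cholesterol and fatty acids are made from acetyl-CoA along separate branches, and 29 mouse genes of these branches were followed in natural killer (NK) cells, innate lymphocytes that kill infected and transformed cells. They comprise 16 enzymes of sterol synthesis, 7 enzymes of fatty acid synthesis, 4 genes of control and sterol transfer (Srebf1, Srebf2, Insig1 and Stard4) and the sterol exporters Abca1 and Abcg1. Acly and Acss2 are counted with the fatty acid enzymes, although the acetyl-CoA they make is the start of both branches. The 29 genes were chosen by gene symbol, with earlier results of these data known. Every probe set that the array annotation gave to 1 of these symbols alone was used. This gave 69 probe sets for the 29 genes, out of 18193 genes on the array with a probe set of their own. All 29 genes had at least 1 probe set bright enough to be tested, as had 12925 genes in all. Of the 69 probe sets, 53 were tested.

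RNA was hybridised to 9 Affymetrix arrays, 3 for each of 3 groups of NK cells purified by flow sorting, and the labels call the samples of a group biological replicates. The first group came from bone marrow of NKDxIL15tg mice and the second from spleen of NKDxIL15tg mice, and the design text calls NKDxIL15tg cells immature. The last group came from spleen of IL15tg mice, whose cells the design text calls mature. All 3 groups carry the IL-15 transgene for this NK survival cytokine, and no group without it was measured. The NKDxIL15tg groups carry the NKD genotype in addition. The promoter of the IL-15 transgene, what the NKD genotype changes, the age and sex of the animals, the number of animals per sample and the markers of the sort are not stated in the sources used here. Since every array of immature cells is NKD, the effects of immaturity and of the genotype cannot be told apart, and bone marrow of NKDxIL15tg mice differs from spleen of IL15tg mice in organ as well. In sorted cells measured in bulk, fewer cells of a type and less RNA per cell cannot be told apart.

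The sterol branch runs from acetyl-CoA through mevalonate, isoprenoid diphosphates and squalene to lanosterol and cholesterol. Its genes are controlled together by the membrane-bound transcription factor SREBP-2, the product of Srebf2, which moves to the nucleus when sterols in the endoplasmic reticulum run low, while Insig1 encodes a protein that holds it back. SREBP-1, from Srebf1, acts more on the fatty acid branch, and the sterol-sensing LXR receptors induce the exporters. Lymphocytes that grow and divide are known to switch on both branches to build membranes, and SREBP activity has been described as part of the metabolic response of cytokine-stimulated NK cells.

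Promoter sequence was taken from RefSeq (build GRCm38.p6) for the 250 bases before the transcription start, and 22 of the 29 genes were matched, with 27 promoters. Genes without an entry, Scd2 among them, are named here without sequence. Short motifs of 4 kinds were searched on either strand: the sterol response element of the textbook form TCACNCCAC, the CCAAT box that binds NF-Y (CCAAT), the GC box that binds Sp1 (GGGCGG) and an E-box (CACGTG). No overlap between these motifs was required or removed. The 4 promoters below are shown because they stand for a gene at the head of the sterol branch (Hmgcs1), the sterol gene that passed the test (Mvd) and the fatty acid genes that fell (Acss2, Elovl6). Matches to any of the motifs are in capitals, so that CCAAT on the opposite strand reads ATTGG and GGGCGG reads CCGCCC. Hmgcs1 lies on the plus strand at chr13:119690101-119690350, Mvd on the minus strand at chr8:122443423-122443672, Acss2 on the plus strand at chr2:155517793-155518042 and Elovl6 on the plus strand at chr3:129532136-129532385.
Hmgcs1: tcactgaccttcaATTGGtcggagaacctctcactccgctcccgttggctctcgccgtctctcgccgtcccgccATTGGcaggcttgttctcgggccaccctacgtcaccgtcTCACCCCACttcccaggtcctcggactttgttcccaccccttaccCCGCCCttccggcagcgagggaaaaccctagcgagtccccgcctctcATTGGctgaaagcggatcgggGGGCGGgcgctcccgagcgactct
Mvd: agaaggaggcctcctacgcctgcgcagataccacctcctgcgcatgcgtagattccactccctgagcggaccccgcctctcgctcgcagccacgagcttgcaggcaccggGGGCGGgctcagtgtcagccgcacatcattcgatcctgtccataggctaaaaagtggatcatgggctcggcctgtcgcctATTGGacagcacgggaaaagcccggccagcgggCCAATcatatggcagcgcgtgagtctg
Acss2: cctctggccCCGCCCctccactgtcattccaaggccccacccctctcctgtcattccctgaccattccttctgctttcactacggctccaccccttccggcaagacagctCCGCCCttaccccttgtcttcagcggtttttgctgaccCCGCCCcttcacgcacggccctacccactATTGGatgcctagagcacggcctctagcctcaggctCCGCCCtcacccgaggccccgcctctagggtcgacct
Elovl6: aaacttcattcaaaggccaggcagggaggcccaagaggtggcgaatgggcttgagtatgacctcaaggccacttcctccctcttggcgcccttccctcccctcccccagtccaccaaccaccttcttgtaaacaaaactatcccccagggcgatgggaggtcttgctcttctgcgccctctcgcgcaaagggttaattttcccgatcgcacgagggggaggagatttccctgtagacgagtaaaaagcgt

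In these windows Hmgcs1 held the sterol response element, 3 CCAAT boxes and 2 GC boxes, and Mvd held 2 CCAAT boxes and 1 GC box. Acss2 held 1 CCAAT box and 4 GC boxes, and the Elovl6 window held none of the motifs. CCAAT boxes were found in 13 of 16 sterol synthesis promoters (81.2%) and in 2 of 5 fatty acid promoters, against 33.8% of 32851 promoters of the same length. These 16 promoters belong to 13 sterol genes. Those without a CCAAT box are starts of Pmvk and Dhcr7, which held a CCAAT box at another start. GC boxes were found in 13 of 16 and in 2 of 5, against 32.7% of all promoters. The sterol response element in this form was found in 1 of 16 sterol promoters and 0 of 5 fatty acid promoters, against 1.05% of all, and the E-box in 3 of 16 and 0 of 5, against 6.02% of all. These matches describe letters in the window and were not tested as sites.

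The deposited values are linear intensities per probe set, and median intensity was 56.6 to 59.1 on 8 arrays and 64.9 on replicate 3 of NKDxIL15tg bone marrow, which stood apart. On that array 2080 probe sets exceeded each of the 8 others by more than 2-fold, a number that was 6 or fewer for every other array, and the mean of its rank correlations within its group was 0.877, against 0.916 to 0.976. Results that rest on it are therefore given with and without it. A gene is represented below by its brightest probe set unless another is named. Differences are log2 changes ± standard error from limma with n = 3 arrays per group, positive where higher in the group named first, with p-values adjusted by Benjamini-Hochberg over 27022 tested probe sets. A gene rose or fell where this adjusted p was under 0.05. A probe set's intensity is not comparable with another's, so levels are compared only between arrays.

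In sorted spleen cells of NKDxIL15tg mice against those of IL15tg mice, 3 enzymes of the fatty acid branch and 1 of the sterol branch changed. Acss2 and Elovl6 fell, Scd2 rose, and in the sterol branch Mvd rose. These 4 of 29 genes passed the test, 2 in each direction, against 12.5% of all tested genes (7.65% higher and 4.87% lower), so the share of calls was near that over the array. By probe set, 8 of 53 tested passed (5 higher and 3 lower), against 13.8% of all (6.75% higher and 7.04% lower). All arrays of 1 group lay beyond all arrays of the other in 15 of the 29 genes, 11 of them higher and 4 lower, against 36.3% of all tested genes (21.3% higher and 15.1% lower). Across the sterol branch 15 of 16 genes had a positive log2 change, with a median of 0.31, against a median of 0.02 over all tested genes. This sterol median was 0.43 without NKDxIL15tg spleen replicate 1 and 0.19 without replicate 2. With the mean of a gene's probe sets in place of the brightest it was 0.23, with 13 of 15 positive.

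**Figure D1:**
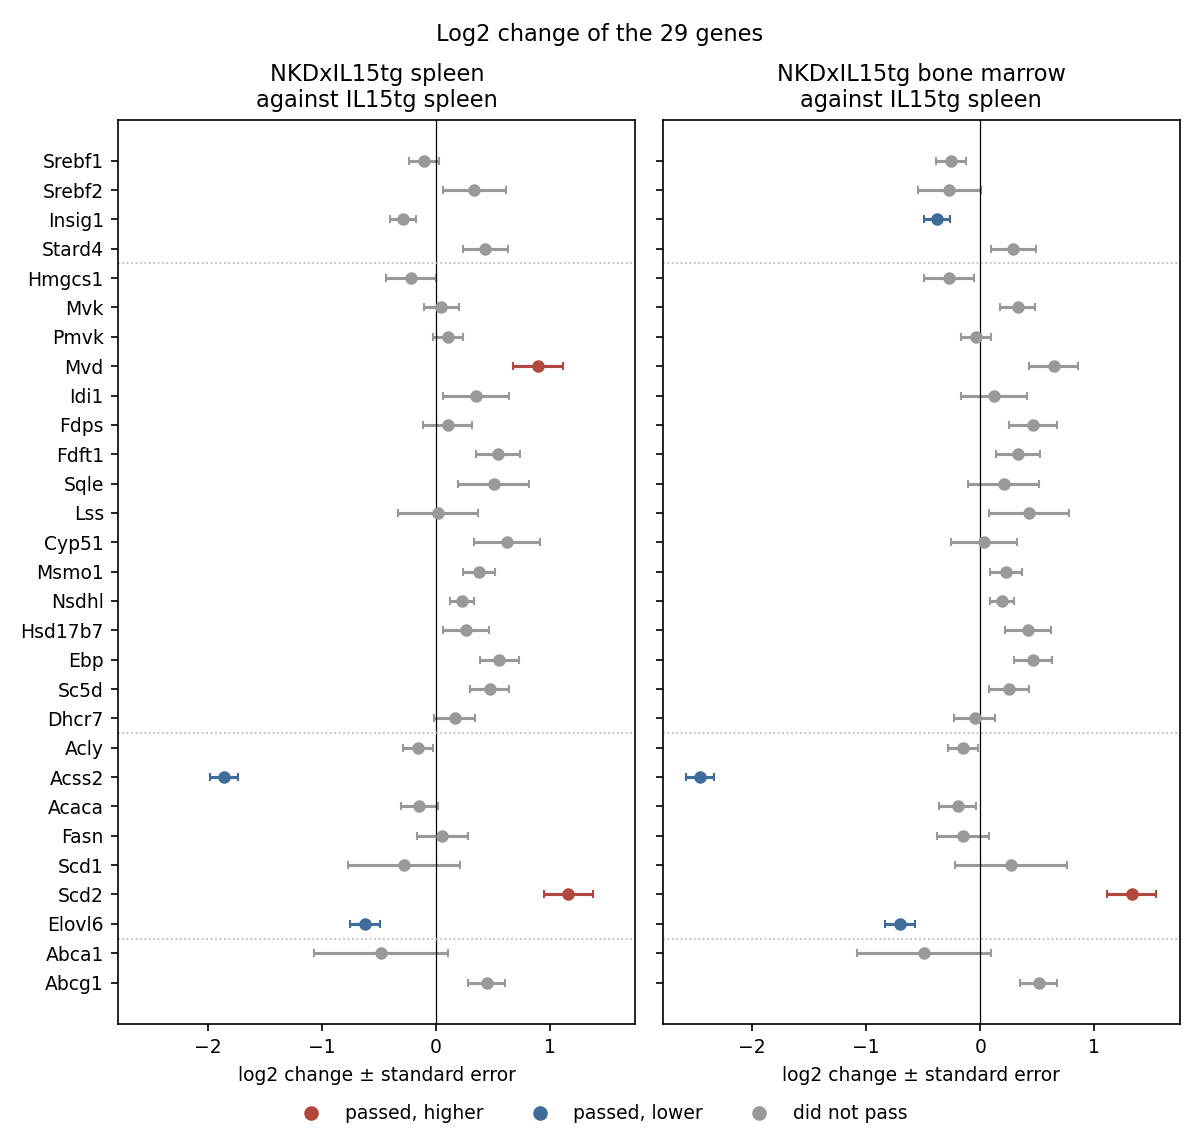
Log2 change with its standard error (x axis) of the 29 genes, grouped by role, for NKDxIL15tg spleen and NKDxIL15tg bone marrow, each against IL15tg spleen, with genes that passed the test in red where higher and blue where lower, and the others in grey. Acss2 lies farthest to the left in both comparisons, at -2.46 for bone marrow and -1.86 for spleen, while most sterol genes lie between 0 and 0.90.

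Acss2, the cytosolic and nuclear enzyme that makes acetyl-CoA from acetate, had the largest change of the 29 genes. Its intensities were 117, 128 and 106 in NKDxIL15tg bone marrow, 191, 166 and 174 in NKDxIL15tg spleen, and 665, 690 and 573 in IL15tg spleen. The 3 groups did not overlap: all IL15tg arrays lay far above all others, and the bone marrow arrays were the lowest. Against IL15tg spleen, Acss2 fell by 1.86 ± 0.12 in NKDxIL15tg spleen (3.63-fold lower, limma adjusted p = 3.0e-05) and fell by 2.46 ± 0.12 in NKDxIL15tg bone marrow (5.49-fold lower, adjusted p = 5.08e-06). Another probe set gave -1.92 ± 0.17 and -2.54 ± 0.17. The dimmest was too dim to be tested, at 21.6 to 31.1 in bone marrow and 23.7 to 28.3 in spleen of NKDxIL15tg mice, against 120 to 135 in IL15tg spleen. Acss2 passed in all 18 alternative settings for either comparison.

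Elovl6, the elongase that extends palmitate to stearate, also fell. It read 241, 280 and 221 in NKDxIL15tg bone marrow, 228, 265 and 291 in NKDxIL15tg spleen, and 418, 387 and 396 in IL15tg spleen. Every NKDxIL15tg array lay below every IL15tg array, while the NKDxIL15tg groups overlapped. The change was -0.62 ± 0.13 in spleen (limma adjusted p = 0.0150) and -0.70 ± 0.13 in bone marrow (adjusted p = 0.00609) against IL15tg spleen. The other probe sets of Elovl6 did not pass, at -0.22 ± 0.19 (adjusted p = 0.529) and -0.75 ± 0.47 (adjusted p = 0.359) in spleen, and at -0.58 ± 0.19 (adjusted p = 0.0542) and 0.21 ± 0.47 (adjusted p = 0.764) in bone marrow. In the last of these, bone marrow replicate 3 read 539, against 124 and 145 in the other bone marrow arrays. The spleen call was lost when any 1 IL15tg array was left out (adjusted p = 0.0504 to 0.0636) and with the mean of all Elovl6 probe sets (0.0866), which also ended the bone marrow call (0.174).

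Scd2, a stearoyl-CoA desaturase that makes monounsaturated fatty acids, moved the other way. Its intensities were 1700, 1150 and 2168 in NKDxIL15tg bone marrow, 1711, 1274 and 1376 in NKDxIL15tg spleen, and 649, 636 and 649 in IL15tg spleen. All 6 NKDxIL15tg arrays lay above the IL15tg arrays, which were close together. Scd2 rose by 1.16 ± 0.21 in spleen (2.24-fold, limma adjusted p = 0.00865) and by 1.33 ± 0.21 in bone marrow (2.51-fold, adjusted p = 0.00313). Its dimmest probe set also rose, by 0.92 ± 0.17 (adjusted p = 0.00977) and 0.81 ± 0.17 (adjusted p = 0.0113). The remaining Scd2 probe set gave 0.40 ± 0.28 (adjusted p = 0.416) and 0.54 ± 0.28 (adjusted p = 0.196).

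Scd1, the related desaturase, did not pass. Its brightest probe set read 151, 144 and 644 in NKDxIL15tg bone marrow, 175, 170 and 149 in NKDxIL15tg spleen, and 175, 189 and 239 in IL15tg spleen. Bone marrow replicate 3 stood above the 8 other arrays, which lay between 144 and 239. The changes were -0.28 ± 0.49 in spleen (adjusted p = 0.808) and 0.27 ± 0.49 in bone marrow (adjusted p = 0.704), and the other Scd1 probe set gave -0.27 ± 0.13 and -0.31 ± 0.13 (adjusted p = 0.228 and 0.131).

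**Figure D2:**
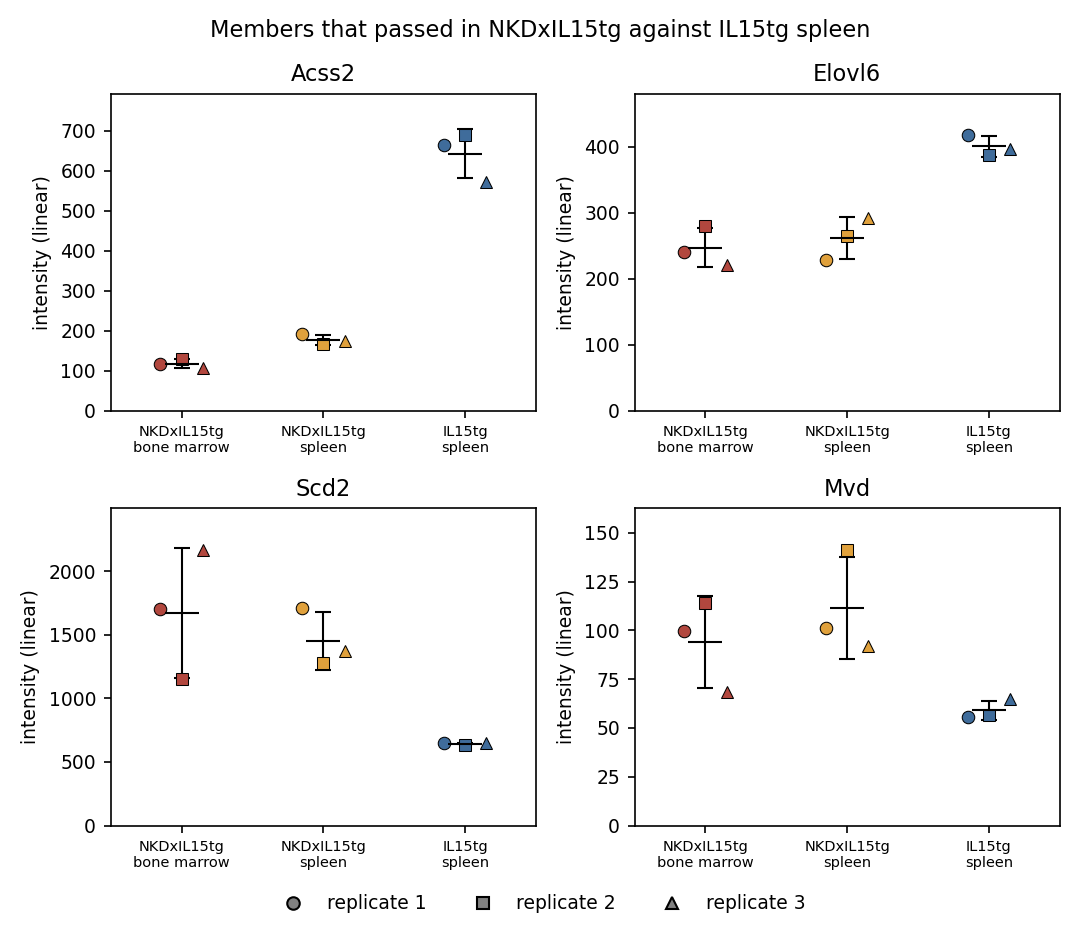
Linear intensity (y axis) of Acss2, Elovl6, Scd2 and Mvd on each of the 9 arrays, by group, with the group mean and SD (n = 3). Acss2 and Elovl6 are highest in IL15tg spleen and Scd2 and Mvd are lowest there, with no overlap with the NKDxIL15tg arrays.

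Fasn, Acaca and Acly, the core of fatty acid synthesis, did not pass by their brightest probe sets in any comparison. Fasn, the synthase itself, read 519, 330 and 519 in NKDxIL15tg bone marrow, 601, 582 and 391 in NKDxIL15tg spleen, and 463, 575 and 458 in IL15tg spleen, so that the groups overlapped widely (0.06 ± 0.23 in spleen, adjusted p = 0.932, and -0.15 ± 0.23 in bone marrow, adjusted p = 0.640). Acaca, the acetyl-CoA carboxylase that makes malonyl-CoA, read 173, 154 and 129 in bone marrow and 180, 168 and 126 in spleen of NKDxIL15tg mice, against 187, 170 and 164 in IL15tg spleen. These overlapped too, with changes of -0.15 ± 0.16 (adjusted p = 0.648) and -0.20 ± 0.16 (adjusted p = 0.391). Acly, which makes acetyl-CoA from citrate and so supplies the same pool as Acss2, averaged 1144 ± 82.3 in bone marrow, 1142 ± 177 in spleen of NKDxIL15tg mice and 1267 ± 75.2 in IL15tg spleen (SD, n = 3). Its change was -0.16 ± 0.13 in spleen (adjusted p = 0.506) and -0.15 ± 0.13 in bone marrow (adjusted p = 0.418), while a dimmer Acly probe set fell by 0.41 in bone marrow (adjusted p = 0.0217). The remaining tested Acly probe sets gave -0.03 ± 0.22 and 0.77 ± 0.27 there (adjusted p = 0.933 and 0.0719), and bone marrow replicate 3 was the highest array in both. The fatty acid branch as a list had a median log2 change of -0.16 in spleen and -0.15 in bone marrow, with 1 gene up and 2 down of 7 in each, against medians of 0.02 and 0.12 over all tested genes.

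In the sterol branch 1 of 16 genes (Mvd) passed in NKDxIL15tg spleen, against 12.5% of all tested genes (7.65% higher and 4.87% lower). Mvd, the decarboxylase that makes isopentenyl diphosphate from mevalonate diphosphate, read 99.6, 114 and 68.3 in NKDxIL15tg bone marrow, 101, 141 and 91.8 in NKDxIL15tg spleen, and 55.6, 56.8 and 64.7 in IL15tg spleen. All NKDxIL15tg arrays lay above the IL15tg arrays, with bone marrow replicate 3 the closest to them. Mvd rose by 0.90 ± 0.22 in spleen (1.86-fold, limma adjusted p = 0.0266), and its change in bone marrow was 0.64 ± 0.22 (adjusted p = 0.0654, and 0.00844 without bone marrow replicate 3). The spleen call held in 10 of 18 alternatives and was lost when any 1 IL15tg array was left out (adjusted p = 0.0616 to 0.0973), without NKDxIL15tg spleen replicate 1 (0.0542) or replicate 2 (0.0894). A dimmer Mvd probe set was under the filter, at 35.1 to 44.3 in NKDxIL15tg spleen and 30.0 to 44.6 in IL15tg spleen.

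The 3 NKDxIL15tg spleen arrays all lay above the 3 IL15tg arrays in 8 of the 16 sterol genes and below them in 0, beside the 21.3% and 15.1% of all tested genes. Besides Mvd these were Fdft1 and Sqle, which make and oxidise squalene, and Cyp51, Msmo1, Nsdhl, Ebp and Sc5d, which turn lanosterol into the later sterols. Ebp, a sterol isomerase, read 1853, 1538 and 1732 in NKDxIL15tg spleen, against 1202, 1113 and 1163 in IL15tg spleen. Its change was 0.56 ± 0.17 (adjusted p = 0.0620). Cyp51, the lanosterol demethylase, read 147, 190 and 115 in NKDxIL15tg spleen, against 84.5, 101 and 103 in IL15tg spleen, a change of 0.62 ± 0.29 (adjusted p = 0.198).

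Fdft1, the squalene synthase, read 282, 338 and 280 in NKDxIL15tg spleen, against 177, 204 and 236 in IL15tg spleen, a change of 0.55 ± 0.19 (adjusted p = 0.0993). A dimmer Fdft1 probe set did pass, at 0.62 ± 0.15 (adjusted p = 0.0262), as did a dimmer probe set of the desaturase Sc5d, at 0.39 ± 0.11 (adjusted p = 0.0471). The remaining tested Fdft1 probe set went the other way, at -0.14 ± 0.12 (adjusted p = 0.527). The brightest Sc5d probe set gave 0.47 ± 0.17 (adjusted p = 0.112). Without bone marrow replicate 3, which enters this comparison only through the shared estimate of spread, 9 of the 29 genes passed in spleen. These were the 4 above and Fdft1 (adjusted p = 0.0233), Cyp51 (0.0347), Ebp (0.00613), Sc5d (0.0134) and Abcg1 (0.0461), with 20.3% of all tested probe sets called, against 13.8% with that array.

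Hmgcs1, whose product makes the substrate of the rate-limiting reductase of the pathway, had the only negative change of the 16 in spleen. It read 853, 736 and 454 in NKDxIL15tg bone marrow, 618, 761 and 677 in NKDxIL15tg spleen, and 825, 700 and 870 in IL15tg spleen. The groups overlapped, and the changes were -0.22 ± 0.22 in spleen (adjusted p = 0.603) and -0.27 ± 0.22 in bone marrow (adjusted p = 0.380). The dimmer tested Hmgcs1 probe sets gave -0.15, -0.09 and 0.41 in spleen, and none passed. Sqle, the squalene epoxidase and a known control point of the pathway, read 77.7, 61.9 and 34.7 in NKDxIL15tg bone marrow, 55.7, 101 and 55.8 in NKDxIL15tg spleen, and 43.5, 49.3 and 50.9 in IL15tg spleen. Spleen replicate 2 of NKDxIL15tg mice and bone marrow replicate 3 were the extremes of Sqle, and neither change passed (0.51 ± 0.31, adjusted p = 0.351, and 0.20 ± 0.31, adjusted p = 0.653).

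The remaining sterol genes did not pass in any comparison. In NKDxIL15tg against IL15tg spleen the changes were 0.05 for Mvk and 0.10 for Pmvk, the kinases of mevalonate, 0.35 for Idi1, the isomerase of isopentenyl diphosphate, and 0.10 for Fdps, the farnesyl diphosphate synthase. They were 0.02 for Lss, which closes the sterol rings, 0.38 for Msmo1, 0.23 for Nsdhl, 0.26 for Hsd17b7 and 0.16 for Dhcr7, all of the steps after lanosterol. The other tested Hsd17b7 probe sets gave -0.01 and -0.07. Lss read 820 in bone marrow replicate 3 and 263 to 342 on the 8 other arrays.

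**Figure D3:**
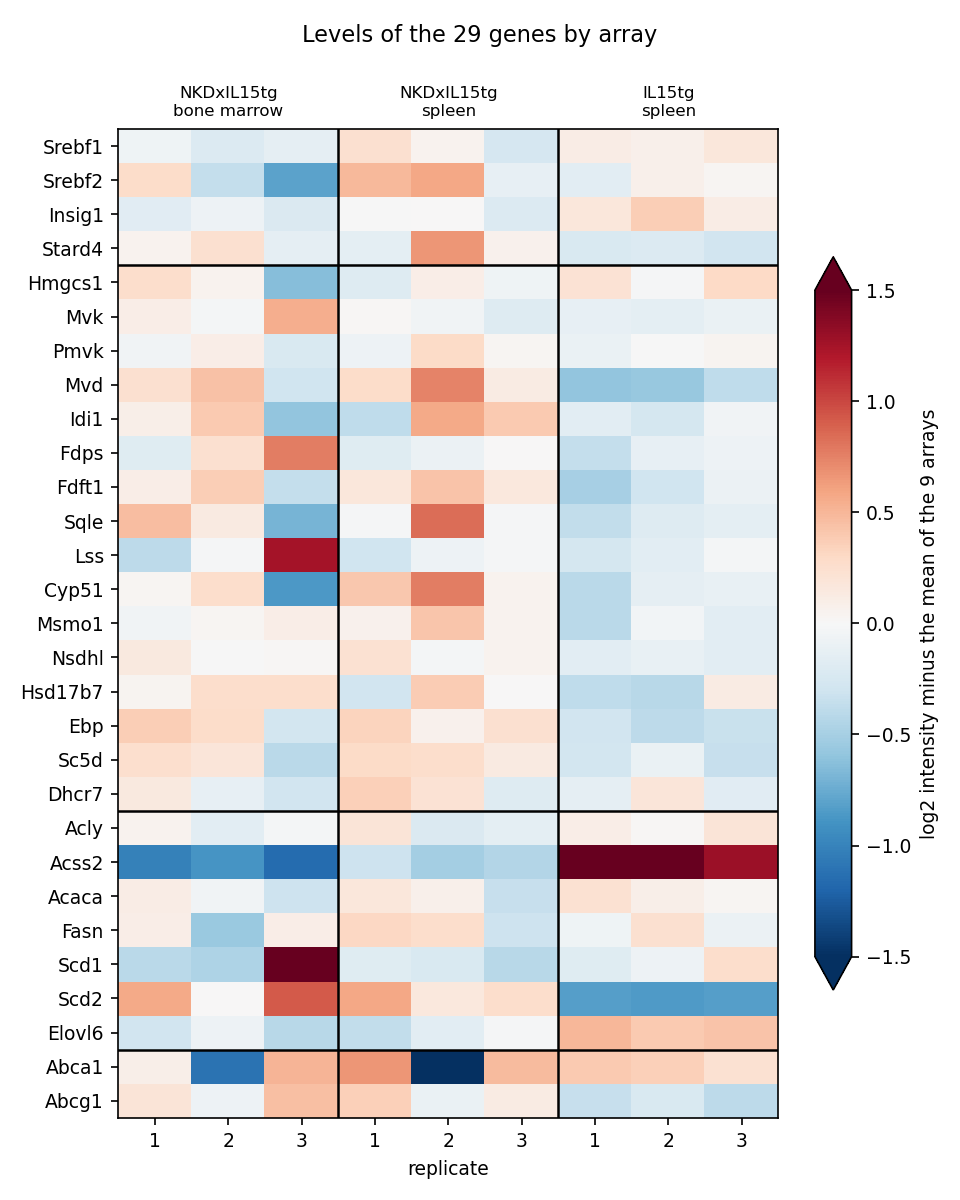
Log2 intensity of each of the 29 genes (rows, by role) minus its mean over the 9 arrays, with arrays in columns by group. Acss2 and Elovl6 are above their means in all 3 IL15tg spleen arrays, while Scd2 and Mvd are below theirs.

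Of the 4 control genes only Insig1 passed, and only in bone marrow. Srebf2, which encodes SREBP-2, read 138, 88.8 and 65.1 in NKDxIL15tg bone marrow, 159, 170 and 104 in NKDxIL15tg spleen, and 101, 119 and 115 in IL15tg spleen, with overlap between all groups. Its changes against IL15tg spleen were 0.34 ± 0.27 in spleen (adjusted p = 0.499) and -0.27 ± 0.27 in bone marrow (adjusted p = 0.484), and a dimmer Srebf2 probe set gave 0.08 ± 0.18 and 0.00 ± 0.18. Srebf1 read 210, 191 and 201 in bone marrow and 260, 228 and 185 in spleen of NKDxIL15tg mice, against 238, 233 and 249 in IL15tg spleen. The bone marrow arrays all lay below the IL15tg arrays, but the change of -0.26 ± 0.13 did not pass (adjusted p = 0.195), nor did that of -0.11 ± 0.13 in spleen (adjusted p = 0.691).

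Insig1 read 158, 168 and 152 in NKDxIL15tg bone marrow, 177, 178 and 154 in NKDxIL15tg spleen, and 200, 230 and 192 in IL15tg spleen. Both NKDxIL15tg groups lay below IL15tg spleen without overlap. Insig1 fell by 0.38 ± 0.11 in bone marrow (limma adjusted p = 0.0447), and its change in spleen was -0.29 ± 0.11 (adjusted p = 0.137). The bone marrow call held in 7 of 18 alternatives, and leaving out 1 array at a time kept it in 1 of 9 cases, with an adjusted p of 0.156 without IL15tg replicate 2 and 0.0760 without bone marrow replicate 3. Stard4, a carrier of cholesterol between membranes, read 268, 305 and 235 in bone marrow and 235, 408 and 270 in spleen of NKDxIL15tg mice, against 220, 224 and 212 in IL15tg spleen. All NKDxIL15tg arrays lay above, and the changes were 0.43 ± 0.20 in spleen (adjusted p = 0.189) and 0.29 ± 0.20 in bone marrow (adjusted p = 0.302). Dimmer Stard4 probe sets gave 0.23 ± 0.25 and 0.34 ± 0.26 in spleen, and -0.07 ± 0.25 and 0.08 ± 0.26 in bone marrow.

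The exporters did not pass. Abcg1, which loads cholesterol onto high-density lipoprotein, read 800, 664 and 956 in NKDxIL15tg bone marrow, 891, 650 and 761 in NKDxIL15tg spleen, and 548, 597 and 533 in IL15tg spleen. All NKDxIL15tg arrays were above the IL15tg arrays, with changes of 0.45 ± 0.16 in spleen (adjusted p = 0.109) and 0.51 ± 0.16 in bone marrow (adjusted p = 0.0529). A dimmer Abcg1 probe set gave -0.16 ± 0.35 and 0.28 ± 0.35. Abca1, which loads cholesterol onto apolipoprotein A-I, read 603, 264 and 814 in bone marrow and 901, 188 and 790 in spleen of NKDxIL15tg mice, against 748, 729 and 667 in IL15tg spleen. Replicate 2 was the lowest array in both NKDxIL15tg groups, and the changes of -0.48 ± 0.59 and -0.50 ± 0.59 had the widest errors of the 29 genes (adjusted p = 0.690 and 0.553). The other tested Abca1 probe set gave -0.14 ± 0.19 and 0.18 ± 0.19.

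NKDxIL15tg bone marrow and IL15tg spleen differed in 4 of the 29 genes, with values given above: Scd2 rose, and Acss2, Elovl6 and Insig1 fell. Over the array 20.2% of tested genes passed (11.5% higher and 8.70% lower), so the share of calls was not above it. By probe set 8 of 53 passed (3 higher and 5 lower), against 21.3% of all (9.79% higher and 11.5% lower). There was no overlap in 11 of the 29 genes, 7 higher and 4 lower, against 42.1% of all tested genes (25.4% higher and 16.6% lower). No sterol synthesis gene passed in bone marrow by its brightest probe set, while the dimmer Sc5d probe set rose by 0.40 ± 0.11 (adjusted p = 0.0339). Their median log2 change was 0.24, with 13 of 16 positive, against 0.12 over all tested genes. With the mean of a gene's probe sets it was 0.12, with 11 of 15 positive. In 4 of the 16 (Mvk, Mvd, Nsdhl and Ebp) all bone marrow arrays lay above all IL15tg arrays. Without bone marrow replicate 3, 7 of the 29 genes passed: Mvd, Fdft1, Ebp, Sc5d and Scd2 rose, and Acss2 and Elovl6 fell, with 23.5% of all tested probe sets called, against 21.3% with it.

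Between the organs of NKDxIL15tg mice, bone marrow against spleen, 0 of the 29 genes passed, against 0.0696% of all tested genes (0.0232% higher and 0.0464% lower). None of the 53 probe sets passed in limma, against 0.0518% of all (0.0111% higher and 0.0407% lower), and 3 had an unadjusted p under 0.05. Of the 29 genes only Acss2 had an unadjusted p under 0.05. Its change was -0.60 ± 0.12 (limma adjusted p = 0.274), and it was also the only gene of the 29 in which all bone marrow arrays lay to 1 side of all spleen arrays, here below them, against 16.9% of all tested genes (10.8% higher and 6.03% lower). Among the sterol genes 4 of 16 had a positive change, and the median was -0.15, against 0.03 over all tested genes. Without bone marrow replicate 3, 7 of 16 were positive and the median was -0.01, and without NKDxIL15tg spleen replicate 2 it was -0.04, with 5 of 16 positive. With array weights it was -0.01, with 8 of 16 positive. Cyp51 gave -0.60 ± 0.29 (limma adjusted p = 0.479) and Srebf2 -0.61 ± 0.27 (adjusted p = 0.477), and in both bone marrow replicate 3 was the lowest of its group. With the replicate number as a block, the adjusted p was 0.357 for each, and no gene of the 29 passed. Within the 3 same-numbered pairs, 8 of the 29 genes were lower in bone marrow in every pair (Mvd, Fdft1, Cyp51, Sc5d, Dhcr7, Srebf2, Insig1 and Acss2), against 16.7% of all tested genes, and 2 were higher in every pair (Mvk and Fdps), against 24.4%.

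The sterol and fatty acid branches were set against each other by their median log2 changes, as a description. The fatty acid list includes Acly and Acss2, which make the acetyl-CoA that both branches use. The sterol median minus the fatty acid median was 0.46 in NKDxIL15tg spleen against IL15tg spleen, 0.39 in NKDxIL15tg bone marrow against IL15tg spleen and -0.10 in bone marrow against spleen of NKDxIL15tg mice. With the mean of a gene's probe sets in place of the brightest, it was 0.28, 0.19 and -0.16 in the same order. In spleen it was 0.71 without NKDxIL15tg spleen replicate 1. Without bone marrow replicate 3 it was 0.55 in bone marrow against IL15tg spleen and 0.03 in bone marrow against spleen, a change of sign, as it was without NKDxIL15tg spleen replicate 2. Per array, after each gene was centred on its mean over the 9 arrays, this difference was 0.05, 0.32 and -0.25 in NKDxIL15tg bone marrow, -0.13, 0.43 and 0.35 in NKDxIL15tg spleen, and -0.38, -0.23 and -0.30 in IL15tg spleen. The IL15tg arrays were all negative, spleen replicate 1 of NKDxIL15tg mice was the lowest of its group, and bone marrow replicate 3 lay within the IL15tg range. The medians for the exporters were -0.02 in NKDxIL15tg spleen and 0.01 in bone marrow, but rest on 2 genes whose changes had opposite signs.

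**Figure D4:**
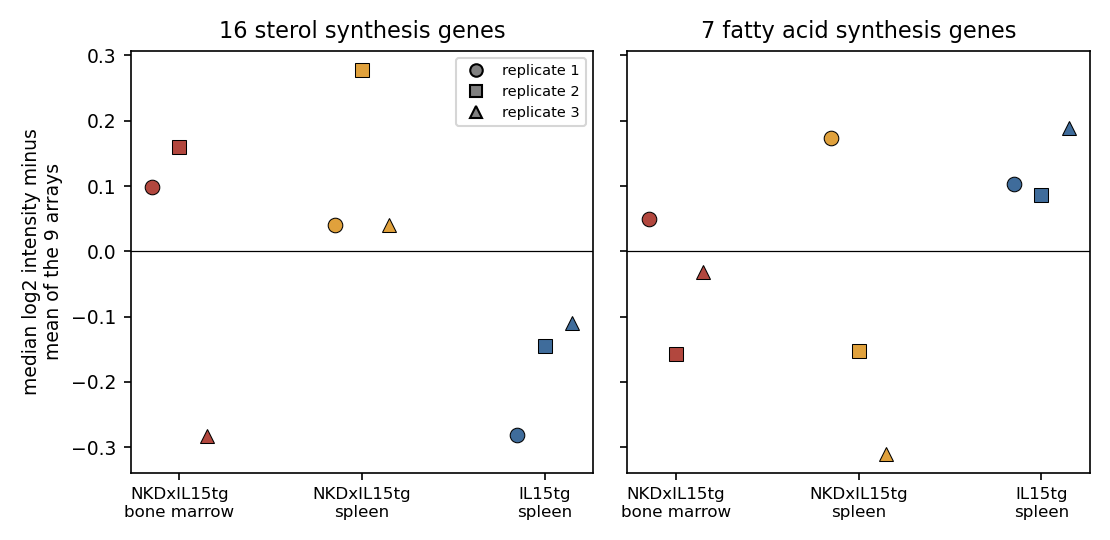
Median over the 16 sterol genes (left) and the 7 fatty acid genes (right) of log2 intensity minus each gene's mean over the 9 arrays (y axis), with arrays by group and a marker shape for each replicate number. In IL15tg spleen the sterol median is below the fatty acid median on all 3 arrays, by 0.23 to 0.38, while it is above it on 2 of 3 arrays in each NKDxIL15tg group.

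Within groups, single arrays were often the extreme for sterol genes. In NKDxIL15tg spleen, replicate 2 was the highest array in 9 of 16 sterol genes and 3 of 4 control genes, but in 0 of 7 fatty acid genes, and it was the lowest in both exporters. Over all tested genes this array was the highest of its group in 32.3%. In NKDxIL15tg bone marrow, replicate 3 was the lowest array in 10 of 16 sterol genes, against 30.6% of all tested genes. In IL15tg spleen, replicate 3 was the highest in 11 of 16, against 37.2%. Idi1 is an example: it read 202, 249 and 125 in NKDxIL15tg bone marrow, 146, 281 and 248 in NKDxIL15tg spleen, and 170, 158 and 183 in IL15tg spleen. In bone marrow, replicates 1 and 2 were each the highest in 6 of 16 sterol genes, against 27.7% and 25.2% of all tested genes. Of 11 T cell markers, 4 were highest in replicate 2 of both NKDxIL15tg groups (Cd3d, Cd3g, Cd8b1 and Thy1) and 2 were lowest there (Cd4 and Cd28). Cd3e was highest in other arrays, and Cd8b1 was too dim to be tested, at 22.8 to 32.4 on the 9 arrays. Cd3g read 251 and 458 in replicate 2 of bone marrow and spleen, against 60.1 to 113 in the other NKDxIL15tg arrays and 88.1 to 122 in IL15tg spleen, and the part of these markers in the sterol values was not tested.

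**Figure D5:**
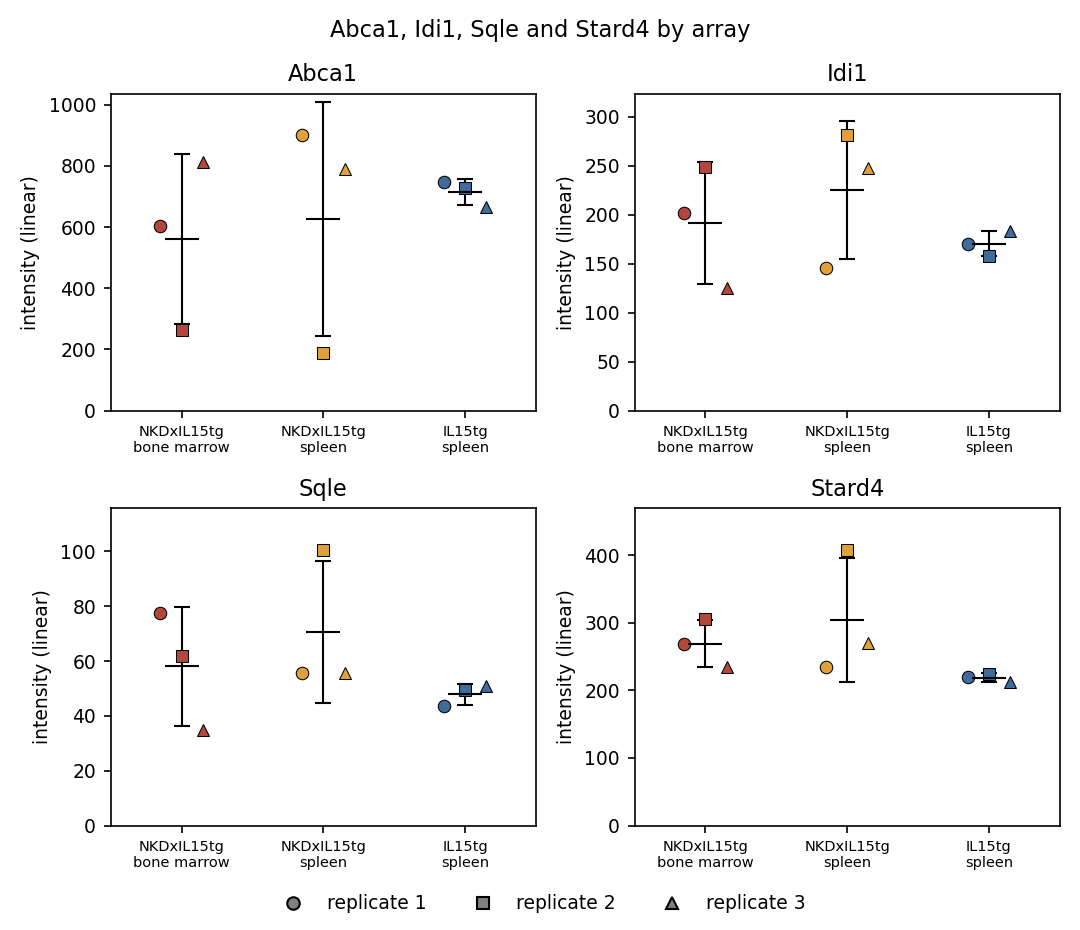
Linear intensity (y axis) of Abca1, Idi1, Sqle and Stard4 on each of the 9 arrays, with group means and SD (n = 3) and a marker shape for each replicate number. In replicate 2 Abca1 is the lowest of both NKDxIL15tg groups, at 264 in bone marrow and 188 in spleen, where Idi1 is the highest of both, at 249 and 281.

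Other genes of the pathway were taken as lists chosen by function. Their counts stand beside 12.5% of all tested genes called in spleen and 20.2% in bone marrow, against IL15tg spleen. Of 4 other sterol pathway genes tested, 1 fell: Ggps1, which makes the geranylgeranyl diphosphate used for protein prenylation, changed by -0.77 ± 0.11 in NKDxIL15tg spleen (limma adjusted p = 0.00281) and by -0.85 ± 0.11 in bone marrow (adjusted p = 0.00114) against IL15tg spleen. Of 7 other SREBP control genes 0 passed in any of the 3 comparisons. Of 6 genes of cholesterol uptake, storage and transport, Npc1, which exports cholesterol from lysosomes, rose by 1.06 ± 0.21 in spleen (adjusted p = 0.0117) and 1.12 ± 0.21 in bone marrow (adjusted p = 0.00625), and Vldlr rose in bone marrow by 0.41 ± 0.11 (adjusted p = 0.0312). Of 7 LXR pathway genes 0 passed in spleen, and in bone marrow Pltp, the phospholipid transfer protein, fell by 0.66 ± 0.18 (adjusted p = 0.0321).

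Of 15 other genes of fatty acid synthesis, 2 rose and 0 fell in NKDxIL15tg spleen, and 3 rose and 1 fell in bone marrow, against IL15tg spleen. Fads1, a desaturase of polyunsaturated fatty acids, rose by 0.60 ± 0.15 in spleen (limma adjusted p = 0.0295) and 0.77 ± 0.15 in bone marrow (adjusted p = 0.00748). Hacd3, a dehydratase of the elongation cycle, rose by 0.61 ± 0.13 and 0.44 ± 0.13, and Fads2 rose in bone marrow by 0.46 ± 0.12. The elongase Elovl7 averaged 202 in bone marrow and 426 in spleen of NKDxIL15tg mice and 605 in IL15tg spleen. It fell by 1.58 ± 0.18 in bone marrow (adjusted p = 0.000573), and in spleen its change was -0.54 ± 0.18 (adjusted p = 0.0860).

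Of 12 genes of fatty acid activation and glycerolipid synthesis, 1 rose and 1 fell in spleen, and 2 rose and 4 fell in bone marrow. Dgat1, which makes triglyceride, fell by 0.46 ± 0.09 in spleen (adjusted p = 0.0129) and 0.44 ± 0.09 in bone marrow (adjusted p = 0.0117), and Lpin2, a phosphatidate phosphatase, rose by 0.60 ± 0.17 and 0.57 ± 0.17. Of 16 genes of fatty acid oxidation, 3 rose and 0 fell in spleen, and 4 rose and 1 fell in bone marrow. Etfb, a carrier of electrons from this pathway, rose by 1.12 ± 0.22 and 1.51 ± 0.22, the thiolase gene Acaa2 by 0.82 ± 0.15 and 1.05 ± 0.15, and Decr1 by 0.66 ± 0.14 and 0.78 ± 0.14. Of 12 genes of AMPK and mTORC1 control, 0 rose and 1 fell in spleen, and 1 rose and 2 fell in bone marrow. In bone marrow against spleen of NKDxIL15tg mice 0 genes of any of these lists passed in limma.

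Cell division genes moved in the same comparisons. Of 18 tested, 17 rose in NKDxIL15tg spleen and 18 in bone marrow against IL15tg spleen, and the summed intensity of the list was 16504 to 18267 in bone marrow, 10687 to 14646 in spleen of NKDxIL15tg mice and 6648 to 7604 in IL15tg spleen. Markers of other cell types moved as well. Of 12 tested markers of granulocytes and monocytes 6 rose in spleen and 12 in bone marrow, with sums of 14518 to 32137 in bone marrow and 5930 to 10598 in spleen of NKDxIL15tg mice, against 3049 to 3262 in IL15tg spleen. Most of the IL15tg sum is Ccr2, at 2331 to 2511 there, against 3138 to 3824 in bone marrow and 3002 to 3221 in spleen of NKDxIL15tg mice. Of 8 erythroid markers 3 rose in spleen and 5 in bone marrow, with sums of 5730 to 7700 in bone marrow and 7758 to 8374 in spleen of NKDxIL15tg mice, against 1916 to 2073 in IL15tg spleen. Most of that sum is Car2, a carbonic anhydrase, with 4726 to 6769 in bone marrow and 6778 to 7150 in spleen of NKDxIL15tg mice, against 1356 to 1510 in IL15tg spleen. The globin gene Hba-a1 read 34.7 to 35.8 in bone marrow and 33.7 to 34.5 in spleen, against 26.7 to 30.0 in IL15tg spleen. Of 7 B cell markers 5 fell in both, with sums of 504 to 578 in bone marrow and 693 to 722 in spleen of NKDxIL15tg mice, against 1026 to 1698 in IL15tg spleen. None passed as higher, but Pax5 and Vpreb1 were higher on every bone marrow array than on every spleen array of either genotype. Pax5 read 64.3 to 89.6 in bone marrow, against 48.8 to 61.1 in spleen, and Vpreb1 read 41.0 to 58.3, against 29.9 to 37.3. Of 13 macrophage and dendritic cell markers 5 fell in spleen and 6 in bone marrow, with sums of 2466 to 4978 in bone marrow and 3418 to 3756 in spleen, against 6289 to 9155 in IL15tg spleen. The median log2 change of the list was 0.03 in spleen and -0.55 in bone marrow. Itgax, H2-Aa, H2-Ab1, H2-Eb1 and Cd74 were lower on every NKDxIL15tg array. Itgax read 42.0 to 56.8 in bone marrow and 54.9 to 72.0 in spleen, against 1448 to 1867 in IL15tg spleen. Adgre1 and C1qb overlapped in spleen, with Adgre1 at 98.1 to 118, against 97.2 to 122 in IL15tg spleen. Of 8 T cell markers 1 rose in both, with sums of 3450 to 4288 in bone marrow and 3771 to 5189 in spleen of NKDxIL15tg mice, against 2036 to 2291 in IL15tg spleen. The marker that passed was Cd28, with 1189 to 1675 in bone marrow and 1395 to 1776 in spleen, against 342 to 411 in IL15tg spleen. In bone marrow against spleen of NKDxIL15tg mice, 3 granulocyte and monocyte markers rose and 2 B cell markers fell.

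The NK marker genes were present on all arrays, and Ncr1, an NK cell receptor, read 1215, 789 and 1464 in NKDxIL15tg bone marrow, 1021, 1139 and 1075 in NKDxIL15tg spleen, and 1532, 1842 and 1553 in IL15tg spleen. Of 9 NK markers 3 fell in spleen and 4 in bone marrow, with sums of 20797 to 23112 in bone marrow and 23645 to 25518 in spleen of NKDxIL15tg mice, against 33567 to 34834 in IL15tg spleen. Much of this difference is Klrd1, at 494 to 1559 in bone marrow and 607 to 1682 in spleen, against 5792 to 6223. Eomes was instead higher on every NKDxIL15tg array, at 2183 to 2752 in bone marrow and 2279 to 2780 in spleen, against 1787 to 2083. Il2rb overlapped between all groups. The part of cell division and of these other cells in the changes of the sterol and fatty acid genes was not tested. Scd1, Lss and the dimmest Elovl6 probe set were high in bone marrow replicate 3, and there 5 of 13 granulocyte and monocyte markers, 2 of 17 macrophage and dendritic cell markers (Csf1r and Flt3), 1 of 10 erythroid markers and 1 of 11 T cell markers (Cd8a) read over 2 times the highest of the 8 other arrays. No NK or B cell marker did. Csf1r read 2600, against 616 to 755 on the others, and C1qa read 51.3, within the 47.2 to 101 of the others. The part of these markers in the values of that array was not tested.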

How the data were processed

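RNA of 3 groups of sorted mouse NK cells was measured on 9 arrays, 3 per group. Per the labels' protocols, total RNA was extracted with Trizol, amplified from the 3' end and labelled with biotin. The authors deposited linear intensities, 1 for each of 45101 probe sets on each array. The summary of probes and the scaling of arrays are not stated in the sources used here.

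Intensities below 16 (4.36% of values) were set to 16, and log2 was taken from the deposited values. The 64 control probe sets were left out, and 27022 probe sets at or above the 40th percentile of mean log2 intensity (5.58, or 47.7 on the linear scale) were tested. The 9 arrays were fitted together with a mean for each of the 3 groups in limma 3.58.1 (R 4.3.3, lmFit, eBayes), 2-sided, with Benjamini-Hochberg adjustment over the tested probe sets and a threshold of 0.05. With 3 against 3 arrays, the smallest p of an exact permutation test is 0.1, so none was run. The number of arrays limits the precision, and the median standard error was 0.15. On simulated data for NKDxIL15tg against IL15tg spleen, 32%, 62%, 92% and 98% of probe sets changed 1.5-, 2-, 4- and 8-fold were recovered, with 8 false calls. There 50 of 27022 probe sets were changed at each fold, with independent normal noise. In the data 3725 passed, which makes the adjustment less strict, so these shares need not hold for the data.

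Probe sets were named by the platform annotation. Of all, 34945 had 1 symbol, 932 several and 9160 none. Promoters came from RefSeq, GRCm38.p6. The members and lists were chosen with earlier results of these data known. Named in full are genes that passed, Srebf1, Srebf2, Insig1, Fasn, Scd1, Scd2, Abca1, Abcg1, Hmgcs1, Sqle and Acaca. Ebp, Cyp51, Fdft1, Stard4 and Idi1 were added after their values were seen. Of other lists, up to 5 genes with the smallest p were named.

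Same-numbered replicates of bone marrow and spleen of NKDxIL15tg mice deviated together (correlations of 0.379, 0.258 and 0.228). Different-numbered ones gave -0.349 to -0.00691, so the numbers may pair these samples. Same-numbered replicates of NKDxIL15tg and IL15tg spleen gave 0.163, 0.156 and 0.123. Some different-numbered ones gave about as much (0.155, 0.141 and 0.115), so these correlations do not show pairing by number. Same-numbered replicates of bone marrow and IL15tg spleen gave 0.17, -0.0236 and 0.242, which do not show it either. The reported fit has no block, and a fit with the replicate number as a block was run beside it. Alternatives were quantile normalization, scaling to the 75th percentile, other floors and filters, array weights, a replicate block, only the 6 arrays compared, the mean of a gene's probe sets, and leaving out each array.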

Additional observations from a re-analysis of the deposited data

How the results depend on the processing

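Acss2 and Scd2 kept their calls against IL15tg spleen in all 18 alternatives, and no call changed direction. In NKDxIL15tg spleen against IL15tg spleen, the genes called numbered 4 in the main fit. They numbered 9 with array weights, 9 with only the 6 arrays compared and 2 with the mean of probe sets. Calls over the whole array rose as well: probe sets called numbered 5685 with array weights and 5184 with only the 6 arrays compared, against 3725. In bone marrow against IL15tg spleen 9 genes were called with array weights, against 4, while probe sets called rose to 8046 of 27022, against 5764. In bone marrow against spleen of NKDxIL15tg mice, 2 probe sets were called without a filter, 4 with a floor of 64 and 23 with the replicate block, against 14, and the block changed no call of a member.

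Leaving out 1 array at a time gave 2 to 9 genes and 1809 to 5483 probe sets in NKDxIL15tg against IL15tg spleen, 3 to 7 genes and 3089 to 6342 probe sets in bone marrow against IL15tg spleen, and 0 to 0 genes and 1 to 15 probe sets in bone marrow against spleen. The sterol median minus the fatty acid median ranged over 0.39 to 0.71, 0.29 to 0.55 and -0.21 to 0.03 in the same order. Mvd in spleen was also lost without a filter (adjusted p = 0.0535), with a floor of 64 (0.0762) and with the mean of probe sets (0.0741), and Elovl6 in spleen with quantile normalization (adjusted p = 0.0505) and 75th percentile scaling (0.0612). The causes were not tested. Dim probe sets limit what can be read: 16 of the 69 were under the filter.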
